A study of Mus musculus with 13 samples.

Results

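The TGF-beta and BMP pathway was followed through spontaneous immortalization of mouse embryonic fibroblasts (MEFs) with 41 genes, taken from a fixed list of names and found by their Ensembl identifiers in both deposited count tables, which list 55487 genes each. They comprise 13 ligands, 8 receptors, 7 secreted antagonists, 5 genes of latency and processing and 8 targets or feedback inhibitors. Poly-A RNA sequencing covered 13 libraries in 4 groups, namely 3 primary and 3 immortalized wild-type (WT) cultures from embryos 3, 4 and 5, and 3 primary and 4 immortalized cultures labelled Prkd3-/- from clones 13, 14 and 15. Prkd3 encodes protein kinase D3, a serine/threonine kinase, and no allele or strain beyond the label was used here. All cultures were grown in medium with 10% fetal calf serum, and each line arose without an introduced gene by serial passage to senescence, prolonged culture in 20% serum and outgrowth of colonies, after which serum was returned to 10%. Lines were established from growing colonies, and lines 13 and 13a carry the same clone number. For WT a shared number marks the same embryo before and after immortalization, and for Prkd3-/- the shared clone number of the labels was read the same way. Each genotype has its own deposited count table, so a difference between genotypes cannot be told apart from one in how the tables were produced. Libraries are named below by group and number.

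TGF-beta family ligands are secreted dimers that bring type I and type II serine/threonine kinase receptors together, and the type I receptor then phosphorylates Smad transcription factors. TGF-betas and activins act mainly through one set of Smads and BMPs and GDFs through another, extracellular antagonists and latency proteins decide how much ligand is free, and Id genes and inhibitory Smads are induced by the signal. In fibroblasts TGF-beta is known for matrix production and growth control, and BMPs for patterning the embryonic mesenchyme from which MEFs are grown.

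Total counts ran from 35273408 to 100441756 per library. Reads of Prkd3 remained under the Prkd3-/- label, at 43.2, 39.7 and 33.6 CPM (counts scaled to library size) in primary MEFs 13, 14 and 15 and 61, 49, 60.3 and 43.8 CPM in lines 13, 13a, 14 and 15, all below the WT libraries, which lay between 69.2 and 93.7 CPM. CPM values used TMM factors set over all 13 libraries. Of 10 fibroblast markers all were above 1 CPM in every primary library and 8 to 10 in the lines, where Lum went as low as 0.0483 CPM in a WT line and Dcn as low as 0.382 CPM in a Prkd3-/- line. The 3 WT primary libraries were close to each other. Over genes with a mean count above 100 in a pair, their median absolute log2 difference was 0.0614 to 0.0772. Still, 28.6% to 34.6% of genes with at least 100 counts in a pair differed beyond the 5% point of counting error. Primary MEFs 14 stood apart from the other Prkd3-/- primary libraries, with differences of 0.292 and 0.318 against 0.146 between the other two, and held more macrophage marker RNA (1106 CPM summed over 11 markers against 102.5 and 246.7 CPM).

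RefSeq promoter windows of the GRCm38.p6 build were matched for 27 of the 41 genes. The 250 bases before the start are shown for the ligands Bmp4 and Bmp5, whose levels differed widely between lines, for Grem1, the antagonist with the highest levels in WT lines relative to primary MEFs, and for Id2, a target gene. Capitals mark the letters CAGAC, read as GTCTG on the other strand, a core to which Smads bind. They also mark 2 GC-rich words known from BMP response elements, namely GGCGCC, which is its own reverse complement, and GGAGCC, which reads as GGCTCC on the other strand. The 3 words do not overlap each other in these windows. The windows lie at chr14:46390670-46390919 on the minus strand, chr9:75775115-75775364 on the plus strand, chr2:113758649-113758898 on the minus strand and chr12:25096093-25096342 on the minus strand, each ending where the transcript starts.
Bmp4: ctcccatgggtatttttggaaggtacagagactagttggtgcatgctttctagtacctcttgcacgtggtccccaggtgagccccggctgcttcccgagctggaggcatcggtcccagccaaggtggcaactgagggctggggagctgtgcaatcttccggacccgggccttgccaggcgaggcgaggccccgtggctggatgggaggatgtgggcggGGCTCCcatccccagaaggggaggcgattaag
Bmp5: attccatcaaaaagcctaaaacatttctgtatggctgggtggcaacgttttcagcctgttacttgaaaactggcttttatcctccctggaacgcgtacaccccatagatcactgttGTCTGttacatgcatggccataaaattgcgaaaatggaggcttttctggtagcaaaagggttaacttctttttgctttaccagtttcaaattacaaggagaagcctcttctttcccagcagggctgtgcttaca
Grem1: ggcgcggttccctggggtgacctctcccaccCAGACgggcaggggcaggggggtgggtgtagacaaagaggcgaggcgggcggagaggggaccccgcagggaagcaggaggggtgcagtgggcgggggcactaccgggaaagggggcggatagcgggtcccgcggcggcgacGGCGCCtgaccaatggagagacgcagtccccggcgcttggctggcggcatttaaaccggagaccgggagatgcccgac
Id2: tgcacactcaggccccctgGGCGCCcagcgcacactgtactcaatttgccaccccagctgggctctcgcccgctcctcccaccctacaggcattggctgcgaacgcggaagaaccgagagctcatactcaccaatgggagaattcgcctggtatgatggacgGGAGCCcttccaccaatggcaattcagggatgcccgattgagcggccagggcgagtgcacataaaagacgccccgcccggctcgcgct
CAGAC occurred in the Bmp5 and Grem1 windows, GGCGCC in those of Grem1 and Id2, and GGAGCC in those of Bmp4 and Id2. Over all 32851 windows of this length CAGAC was present in 42.2%, GGAGCC in 26% and GGCGCC in 9.59%. The Bmp4, Bmp5, Grem1 and Id2 windows held 11, 4, 24 and 18 CpG dinucleotides. The median was 6 over all windows and 18 over the windows of the 27 pathway genes matched. Windows were not used for Bmp1, Bmp2, Bmp3, Bmp7, Gdf5, Gdf6, Tgfb3, Tgfbr3, Nog, Chrdl1, Fst, Id1, Smad7 and Bambi.

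In primary WT MEFs the pathway was dominated, per kilobase of exon, by a few extracellular genes. Fstl1, a secreted follistatin-like glycoprotein that can bind BMP ligands, had the highest level with 429.9 ± 7.5 FPKM (SD, n = 3), followed by the matrix latency proteins Ltbp2 (125 ± 3.09 FPKM, SD, n = 3) and Ltbp1 (103 ± 4.19 FPKM, SD, n = 3). Next came the ligand Tgfb3 with 93.3 ± 1.52 FPKM (SD, n = 3) and the target gene Id3 with 91.8 ± 2.02 FPKM (SD, n = 3), which did not differ beyond their spread. In WT lines Fstl1 was again the highest with 463 ± 38.6 FPKM (SD, n = 3), whereas Ltbp2 (222 ± 213 FPKM) and Grem1 (216 ± 129.5 FPKM) followed with spreads so wide that their order is not set. In the Prkd3-/- primary libraries the first 3 were Fstl1, Ltbp1 and Ltbp2 (361, 125 and 104 FPKM), and in Prkd3-/- lines Fstl1, Grem1 and Ltbp1 (309, 145 and 93.9 FPKM).

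After immortalization of WT MEFs the ligands Bmp2, Bmp3, Gdf6 and Gdf5, all of low abundance, had the lowest Log2FC values of the 40 genes tested. The median was -3.07 over the 7 Bmp and Gdf ligands tested and 0.09 over the 8 receptors. A gene was called when edgeR's quasi-likelihood test on the WT libraries alone gave an adjusted p below 0.01 with a 2-fold change or more. Bmp3 fell, as 1 of the 40 genes with enough counts to test, against 1.76% of all 19836 genes called lower, and 0 were called higher against 0.0605% (1.82% in either direction). At an adjusted p below 0.05 Bmp2 and Gdf6 joined Bmp3, against 4.16% of genes called lower. DESeq2 with the same thresholds called 5 lower (Bmp2, Bmp3, Bmp7, Gdf6 and Nog), against 3.68% of its genes, and 1 higher (Grem1), against 0.372%. At an unadjusted p under 0.05, 11 of the 40 passed, against 19.7% of all genes. The median Log2FC of the 40 was -0.18 and that of all genes 0.04. With the embryo as a replicate block 0 genes of the genome and 0 of the 40 were called, with 2784 genes and 9 of the 40 at an unadjusted p under 0.05.

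In the libraries labelled Prkd3-/- the same comparison called 0 of 40, and 0 of all 20298 genes (0%), at edgeR's adjusted p under 0.01. There 4 of the 40 had an unadjusted p under 0.05 (Bmp3, Bmp5, Gdf6 and Tgfb3, all lower in the lines), against 6.56% of all genes. DESeq2 also called 0 of the 41, against 0.469% of genes lower and 0.0777% higher. The median Log2FC of the 40 was -0.13 and that of all genes 0.07. In the plot of fold changes Bmp2, Bmp3, Gdf6 and Gdf5 lie farthest from 0 in WT.

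**Figure D1:**
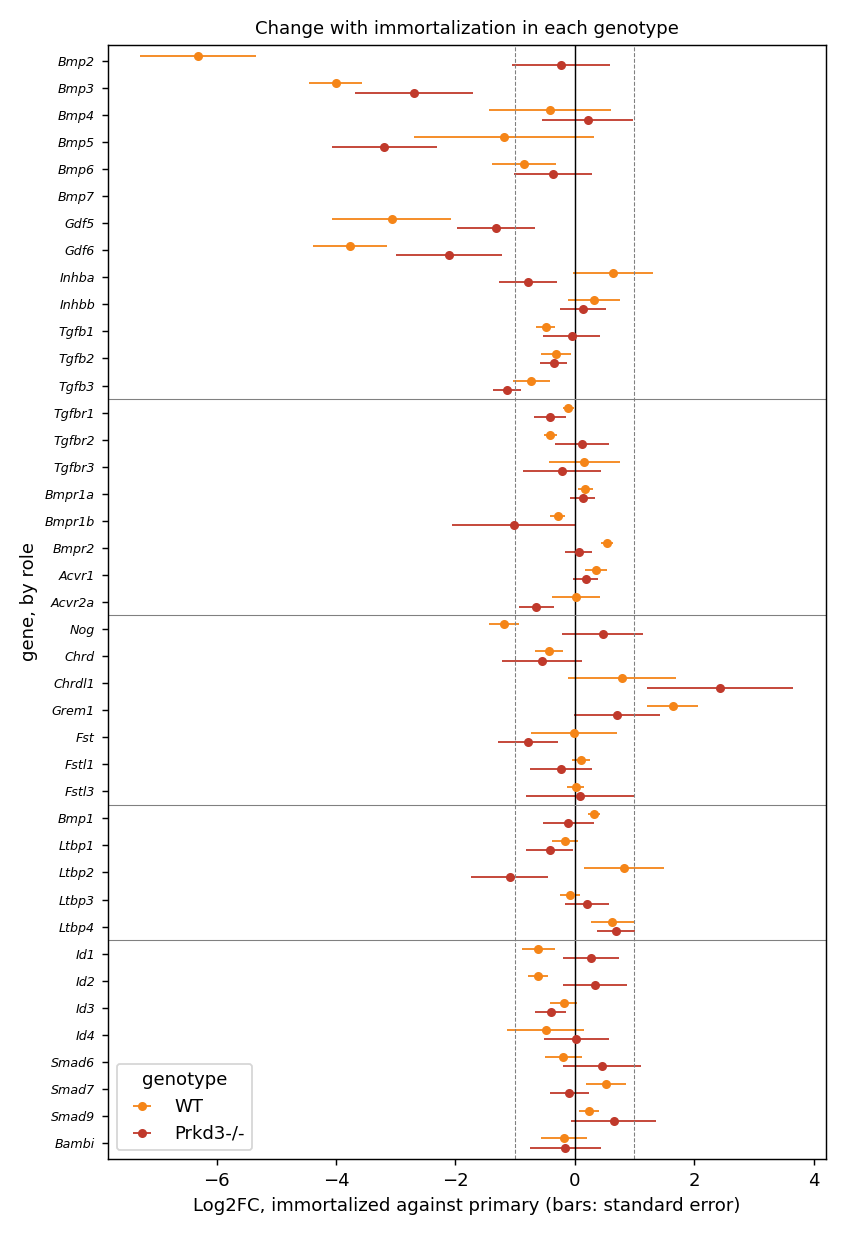
Log2FC of immortalized against primary MEFs (x axis) for each gene (y axis, ordered by role), in WT (orange) and Prkd3-/- (red), with bars for the standard error and dashed lines at a Log2FC of -1 and 1. Bmp2 in WT lies at -6.31 and in Prkd3-/- at -0.23, whereas Bmp3 lies at -4.01 and -2.69, and Bmp7 was too low to test.

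Looking only at whether the libraries of both states overlapped, in WT all 3 lines lay below all 3 primary libraries for 13 of the 41 genes, among them 12 of the 40 tested, against 17.4% of all genes tested (31.3% in either direction). They were 7 ligands (Bmp2, Bmp3, Bmp7, Gdf5, Gdf6, Tgfb1 and Tgfb3), the receptors Tgfbr2 and Bmpr1b, the antagonists Nog and Chrd, and the targets Id1 and Id2. Every line lay above every primary library for 3 genes (Bmpr2, Grem1 and Bmp1), against 13.9%. In Prkd3-/- the lines lay below the primary libraries for Bmp5, Tgfb3 and Fst, against 5.26% of genes, and above for Ltbp4, against 4.19% (9.45% in either direction). Without primary MEFs 14, which stood apart, 8 genes lay below (Bmp3, Bmp5, Gdf5, Tgfb3, Fst, Ltbp1, Ltbp2 and Id3), against 8.97%, and 1 above (Ltbp4), against 7.55%. With all libraries kept, Tgfb3 was the 1 gene of the 41 with separate states in both genotypes, and without primary MEFs 14 Bmp3 and Gdf5 were separate in both as well. The share of all genes separate in both genotypes was not computed. Leaving out primary MEFs 14 also raised the Prkd3-/- share below over all genes, from 5.26% to 8.97%.

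Bmp2 (ENSMUSG00000027358, chr2:133552159-133562885), a BMP ligand known for bone and heart development, had the largest difference in change between the 2 genotypes. In WT primary MEFs 3, 4 and 5 it stood at 5.26, 5.04 and 8.24 CPM and in WT lines 3, 4 and 5 at 0, 0.186 and 0.0457 CPM, the last from 0, 11 and 3 counts. In Prkd3-/- primary MEFs 13, 14 and 15 it was 6.43, 1.26 and 2.55 CPM, and in lines 13, 13a, 14 and 15 5.71, 2.63, 0.469 and 2.97 CPM. The WT lines were all near 0, far below their primary libraries, whereas the Prkd3-/- lines overlapped theirs and only line 14 lay below them. The change was Log2FC -6.31, standard error 0.97, edgeR adjusted p = 0.0218 in WT and Log2FC -0.23, standard error 0.82, edgeR adjusted p = 0.969 in Prkd3-/-. The difference of the 2 changes was a Log2FC of 6.09 (standard error 1.45, edgeR adjusted p = 1), and with DESeq2 6.10 with an adjusted p = 0.00675. Bmp2 was the 1 gene of the 41 with an unadjusted p under 0.05 in that test, which called 0 of all 21197 genes (0%) and gave 841 at an unadjusted p under 0.05 (3.97%). DESeq2 called 37 genes (0.101%), Bmp2 among them.

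Bmp3 (ENSMUSG00000029335, chr5:98854415-98884396), a member of the family that tends to oppose other BMPs, was low but present in primary WT MEFs at 1.59, 1.43 and 2.02 CPM. It fell to 0.129, 0.135 and 0.0457 CPM in lines 3, 4 and 5, from 8, 8 and 3 counts. In Prkd3-/- it measured 1.64, 0.194 and 0.393 CPM in primary MEFs 13, 14 and 15 and 0.0191, 0.0822, 0.0625 and 0.283 CPM in lines 13, 13a, 14 and 15. WT states did not overlap, while in Prkd3-/- line 15 lay above primary MEFs 14. The WT change (Log2FC -4.01, standard error 0.44, edgeR adjusted p = 0.00731) passed the thresholds, and the Prkd3-/- one (Log2FC -2.69, standard error 0.99, edgeR adjusted p = 0.71) did not. The WT call was lost when any of primary MEFs 3, 4 and 5 or of lines 3 and 4 was left out (adjusted p = 0.0114 to 0.0501) and held without line 5, with a Log2FC of -4.24 to -3.65 throughout.

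Gdf5 and Gdf6 (ENSMUSG00000051279, chr4:9844372-9862345) are ligands of joint and skeletal patterning. Gdf6 was 2.47, 2.51 and 2.82 CPM in WT primary MEFs and 0.0806, 0.102 and 0.381 CPM in the lines, and in Prkd3-/- 4.84, 11.3 and 2.61 CPM in primary MEFs and 0.382, 0.959, 0.594 and 3.9 CPM in lines 13, 13a, 14 and 15. Gdf5 was 2.41, 1.73 and 1.04 CPM in WT primary MEFs and 0.0161, 0.102 and 0.488 CPM in lines, and in Prkd3-/- 1.59, 0.259 and 1.01 and 0.592, 0.274, 0.438 and 0.229 CPM. Both were below all primary libraries in every WT line, with line 5 the highest of the lines for each, and both overlapped in Prkd3-/-, where primary MEFs 14 held the highest Gdf6 and, of the primary libraries, the lowest Gdf5. For Gdf6 the change was Log2FC -3.77, standard error 0.62, edgeR adjusted p = 0.0271 in WT and Log2FC -2.10, standard error 0.88, edgeR adjusted p = 0.751 in Prkd3-/-. Without WT line 5 Gdf6 passed the thresholds (Log2FC -4.81, edgeR adjusted p = 0.00106). For Gdf5 it was Log2FC -3.07, standard error 1.00, edgeR adjusted p = 0.172 in WT and Log2FC -1.32, standard error 0.65, edgeR adjusted p = 0.79 in Prkd3-/-. Of the exon bases of Gdf5, 40.3% are shared with Gm15557 on the other strand, and without strand in the counting the reads of both cannot be told apart.

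Bmp4 (ENSMUSG00000021835, chr14:46383520-46390669), a ligand of mesenchyme patterning, made up 86.8% to 87.9% of the summed FPKM of the 8 Bmp and Gdf ligands in WT primary MEFs and varied widely among the lines. It measured 94.3, 89.8 and 86.8 CPM in WT primary MEFs and 3.72, 71.3 and 128 CPM in lines 3, 4 and 5. In Prkd3-/- primary MEFs it was 45.6, 31.2 and 35.9 CPM, and in lines 13, 13a, 14 and 15 29.3, 43.7, 96.1 and 5.62 CPM. WT line 3 and Prkd3-/- line 15 were far below every other library, WT line 5 and Prkd3-/- line 14 were above all primary libraries of their genotype, and the states overlapped in both genotypes. No change with immortalization passed the test (edgeR adjusted p = 0.862 in WT and 0.969 in Prkd3-/-). Summed over the 8 ligands, WT line 3 had 2.06 FPKM against 33.9 and 57.9 in lines 4 and 5 and 44.5 to 47.8 in primary MEFs, and Prkd3-/- line 15 had 4.73 FPKM against 15.2, 21.2 and 44.0 in lines 13, 13a and 14.

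Bmp5 (ENSMUSG00000032179, chr9:75775364-75900310), a ligand of skeletal and limb development, kept a primary level in 1 of 3 WT lines. It stood at 6.19, 6.45 and 4.86 CPM in WT primary MEFs 3, 4 and 5 and at 0.161, 7.48 and 0.0915 CPM in lines 3, 4 and 5, so that line 4 was above all primary libraries and the other 2 were near 0. In Prkd3-/- it was 1, 1.23 and 1.04 CPM in primary MEFs and 0.0191, 0.0411, 0.344 and 0.0674 CPM in the lines, all of which lay below all primary libraries. The change was Log2FC -1.18, standard error 1.51, edgeR adjusted p = 0.717 in WT and Log2FC -3.19, standard error 0.88, edgeR adjusted p = 0.573 in Prkd3-/-. Without WT line 4 the WT change was a Log2FC of -5.51 (edgeR adjusted p = 0.00368). Gm26903 on the other strand shares 46.7% of the exon bases of Bmp5, and without strand in the counting the reads of both cannot be told apart. The count of Gm26903 was 2.57 to 3.18 CPM in WT primary MEFs, 3.17 CPM in line 4 and at most 0.0322 CPM in lines 3 and 5. Because reads are shared, this is not separate evidence of a second transcript.

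Bmp6 and Bmp7, ligands of iron control and kidney development among other roles, were low throughout. Bmp6 ranged from 0.526 to 3.18 CPM over the 13 libraries with overlapping states in both genotypes. Bmp7 was at 0.399, 0.381 and 0.125 CPM in WT primary MEFs and 0.0322, 0 and 0.0152 CPM in the lines, from 3 counts in all against 68, a ratio of 19.9 (exact 95% Poisson interval 6.80 to 96.3, for counting error only). Only line 14 among the Prkd3-/- lines had any Bmp7 count, at 0.516 CPM, and 0 counts allow up to 0.0413 to 0.057 CPM in the other lines (3 counts). The plot of ligand and antagonist levels shows these patterns library by library.

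**Figure D2:**
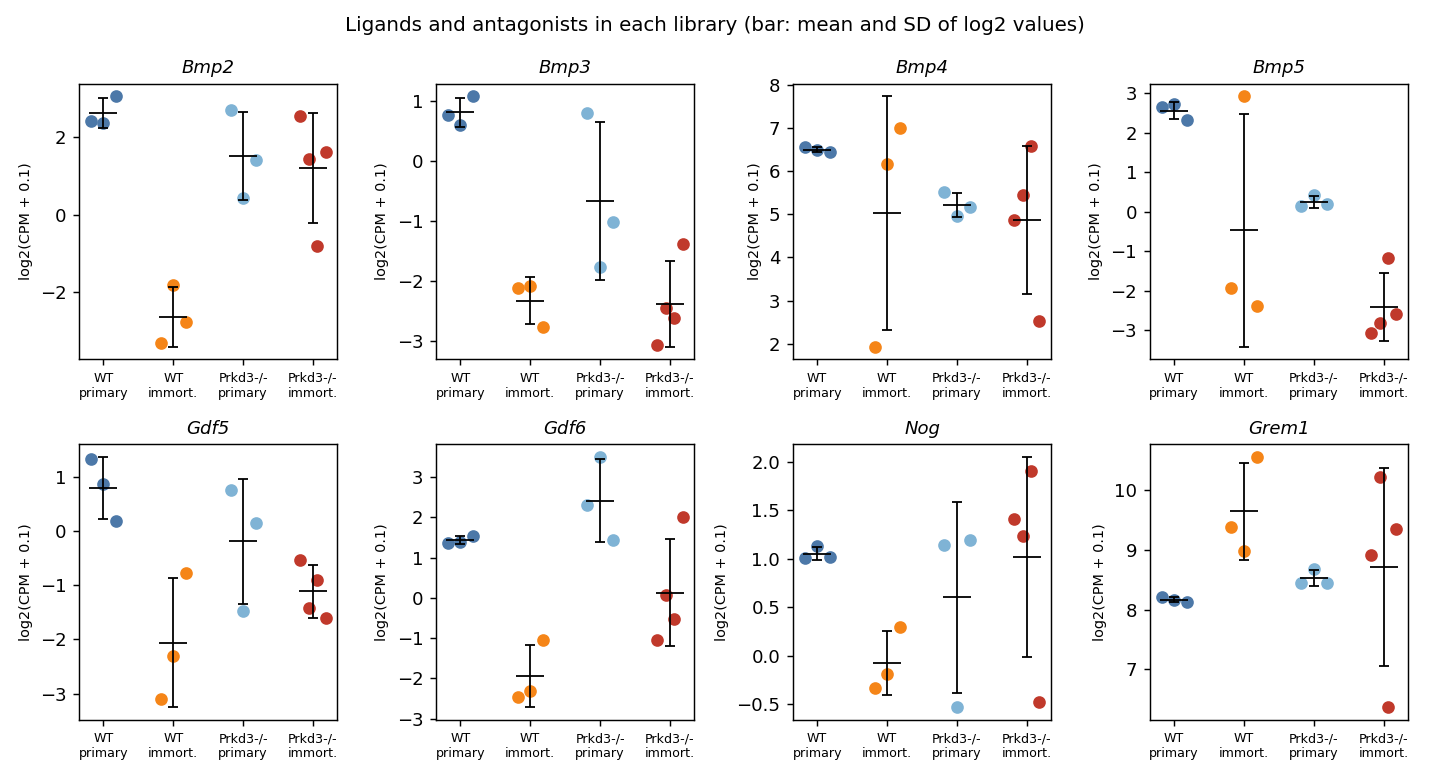
log2(CPM + 0.1) (y axis) of 6 ligands and 2 antagonists in each library of the 4 groups (x axis), with each point a library and bars for the mean and SD of the log2 values (n = 3, 3, 3 and 4). The WT lines are below all WT primary libraries for Bmp2, Bmp3, Gdf5, Gdf6 and Nog and above them for Grem1, whereas Bmp4 and Bmp5 are split among lines.

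Other cell types were counted beside these ligands. Macrophage markers summed to 793 to 833 CPM in WT primary MEFs and 38.4 to 118 CPM in WT lines, and to 102.5 to 1106 CPM and 11.8 to 195 CPM in Prkd3-/-, with 11 of 11 above 1 CPM in every primary library and 2 to 11 in the lines. Endothelial markers summed to 11.6 to 16.4 CPM and 0.371 to 2 CPM in WT, and to 15.2 to 29.0 and 1.55 to 17.6 CPM in Prkd3-/-, with Kdr and Tek the highest in WT. Pecam1 stayed at or below 0.199 CPM, Tie1 at or below 0.0305 CPM and Cldn5 at or below 0.0115 CPM in every library. Emcn reached 9.55 CPM in a Prkd3-/- primary library and Cdh5 3.74 CPM in a Prkd3-/- line. Skeletal muscle markers summed to 22.6 to 26.2 and 0.728 to 7.14 CPM in WT, nearly all from Des, with Myf5, Myod1 and Pax7 at or below 0.037 CPM. These 3 sums were lower in every WT line than in every WT primary library. Chondrocyte markers summed to 202 to 261 and 76.7 to 728 CPM in WT and to 115 to 161 and 117 to 2148 CPM in Prkd3-/-. In WT Col2a1 (161.5 to 210 and 6.10 to 676 CPM), Sox9 (22.9 to 26.0 and 13.7 to 70.0 CPM) and Matn1 overlapped between states. Acan (4.59 to 9.02 and 0.0677 to 0.403 CPM), Comp (13.2 to 15.5 and 0.396 to 2.34 CPM) and Col9a1 (0.197 to 0.261 and 0 to 0.0152 CPM) were lower in every WT line. Epithelial markers summed to 2.41 to 2.81 CPM in WT primary MEFs and 0.209 to 0.542 CPM in WT lines, and Schwann and neural crest markers to 2.22 to 3.07 and 0.564 to 1.45 CPM, so both were also lower in every WT line, and neither exceeded 4.96 CPM in any library. In bulk RNA fewer cells of a type and less RNA per cell cannot be told apart, and the part of these cell types in the ligand values was not tested.

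The TGF-beta ligands proper had higher FPKM values than the BMP ligands other than Bmp4. Tgfb3 (ENSMUSG00000021253, chr12:86056745-86079041) held 70.2% to 73.7% of the summed FPKM of Tgfb1, Tgfb2 and Tgfb3 in WT primary MEFs and 77.4% to 80.0% in Prkd3-/- primary MEFs. It measured 311, 315 and 321 CPM in WT primary MEFs and 133, 288 and 149.7 CPM in lines 3, 4 and 5, and in Prkd3-/- 291, 297 and 313 CPM in primary MEFs and 109, 190.2, 131 and 120.3 CPM in lines 13, 13a, 14 and 15. In both genotypes all lines were below all primary libraries, but WT line 4 only slightly. The change was Log2FC -0.73, standard error 0.31, edgeR adjusted p = 0.27 in WT and Log2FC -1.14, standard error 0.23, edgeR adjusted p = 0.31 in Prkd3-/-, where it had the smallest p of the 40. Without WT line 4 the WT change was a Log2FC of -1.16 (edgeR adjusted p = 0.00831). Gm48008 on the other strand shares 12.4% of the exon bases of Tgfb3.

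Tgfb1, the isoform best known in immune control and fibrosis, was 98.5, 87.8 and 87.8 CPM in WT primary MEFs and 51.6, 77 and 67.2 CPM in lines, without overlap (Log2FC -0.49, standard error 0.16, edgeR adjusted p = 0.175), and ran from 27.0 to 128 CPM in Prkd3-/- lines around 59.9 to 76.9 CPM in their primary libraries. Tgfb2 lay between 39.1 and 113 CPM in all libraries with overlapping states in both genotypes. The summed FPKM of the 3 isoforms was 129 to 131 in WT primary MEFs and 67.7, 117 and 67.0 in lines 3, 4 and 5, and 111 to 115 in Prkd3-/- primary MEFs and 51.2, 88.3, 53.8 and 54.9 in lines 13, 13a, 14 and 15. The sum was lower in every line than in every primary library of its genotype, and WT line 4 and Prkd3-/- line 13a were the least reduced.

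**Figure D3:**
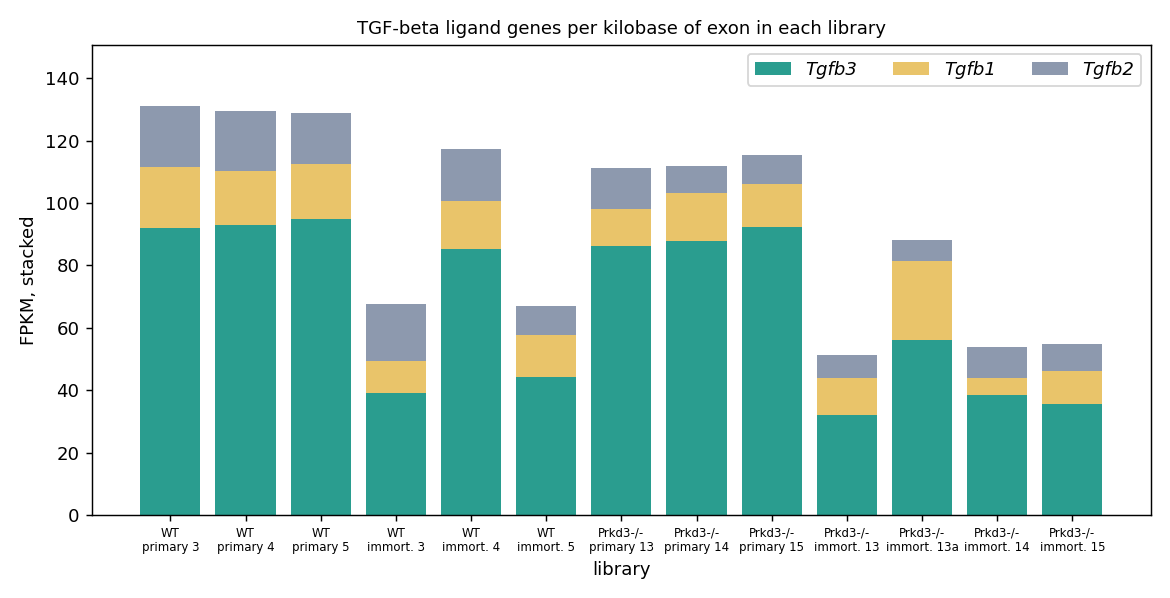
Stacked FPKM (y axis) of Tgfb3, Tgfb1 and Tgfb2 in each of the 13 libraries (x axis). The sum lies between 111 and 131 in the 6 primary libraries and between 51.2 and 117 in the 7 lines, and Tgfb3 is the largest share in each library, from 58.0% to 80.0%.

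Among the activin subunit genes, Inhba was 329, 329 and 338 CPM in WT primary MEFs and 1097, 189 and 272 CPM in lines 3, 4 and 5, with line 3 far above the others, and 81.8 to 375 CPM in Prkd3-/- lines. Inhbb lay between 22.4 and 91.9 CPM in all libraries. Neither was separated between states in either genotype, and neither passed the test.

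In WT the 8 receptor genes of the list had a narrower range of Log2FC values than the ligands. Acvrl1, a receptor gene outside the list, is given below with the further pathway genes. Over the 8 receptors the WT Log2FC ran from -0.41 to 0.54 with a median of 0.09, against -6.31 to 0.64 and a median of -0.79 for the 12 ligands tested. The lowest of these were Bmp and Gdf ligands, and the 5 activin and TGF-beta ligands ran from -0.73 to 0.64 with a median of -0.32. In Prkd3-/- the receptors ran from -1.03 to 0.18 and the 12 ligands tested from -3.19 to 0.21. Bmpr2, the BMP type II receptor, was 209, 219 and 223 CPM in WT primary MEFs and 312, 299.7 and 335 CPM in lines, and 219.9, 163 and 228 and 167, 208, 216 and 266 CPM in Prkd3-/-. Every WT line was above every WT primary library, whereas the Prkd3-/- states overlapped. Its change in WT (Log2FC 0.54, standard error 0.10, edgeR adjusted p = 0.0345) was below 2-fold and is not a call at the thresholds used. Tgfbr2, the TGF-beta type II receptor, was 485, 494 and 458 CPM in WT primary MEFs and 399, 338 and 346 CPM in lines (Log2FC -0.41, standard error 0.12, edgeR adjusted p = 0.129), and 284, 215 and 242 and 174, 183, 544 and 180.0 CPM in Prkd3-/-, where line 14 alone was high.

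Of the type I receptors, Bmpr1a held 64.1% to 71.9% of the summed FPKM of Bmpr1a, Bmpr1b and Acvr1 in all libraries and lay between 148 and 274 CPM. Bmpr1b was 14, 13.2 and 12.8 CPM in WT primary MEFs and 10.8, 12.2 and 9.73 CPM in lines, and 8.03, 7.91 and 9.06 CPM in Prkd3-/- primary MEFs and 1.05, 9.91, 0.219 and 5.26 CPM in lines 13, 13a, 14 and 15. It was lowest in lines 14 and 13, and line 13a, of the same clone number as line 13, lay above all 3 primary libraries. Tgfbr1 (27.7 to 72.3 CPM), Acvr1 (49.9 to 86.5 CPM), Acvr2a (20.6 to 70.6 CPM) and the co-receptor Tgfbr3 (20.0 to 239 CPM) had overlapping states in both genotypes.

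Of the secreted antagonists, Grem1 lay above and Nog and Chrd below the primary level in every WT line. Grem1 (ENSMUSG00000074934, chr2:113746164-113758646), which encodes gremlin, a binder of BMP2, BMP4 and BMP7, was 296, 287 and 279 CPM in WT primary MEFs and 671, 507 and 1509 CPM in lines 3, 4 and 5. In Prkd3-/- it was 350.1, 409 and 346 CPM in primary MEFs and 482, 1192, 82.2 and 655 CPM in lines 13, 13a, 14 and 15. Every WT line was above every WT primary library, and of the Prkd3-/- lines 3 were above and line 14 was far below. The change was Log2FC 1.64, standard error 0.43, edgeR adjusted p = 0.105 in WT and Log2FC 0.70, standard error 0.72, edgeR adjusted p = 0.88 in Prkd3-/-. Leaving out 1 WT library at a time gave a Log2FC of 1.04 to 1.93.

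Nog (ENSMUSG00000048616, chr11:89300638-89302332) encodes noggin, another BMP binder. It was low, at 1.92, 2.09 and 1.93 CPM in WT primary MEFs and 0.693, 0.779 and 1.13 CPM in lines, and 2.11, 0.592 and 2.19 and 2.56, 2.25, 3.64 and 0.62 CPM in Prkd3-/-. The WT lines were all below their primary libraries, and in Prkd3-/- primary MEFs 14 and line 15 were low together against the other libraries. The change was Log2FC -1.19, standard error 0.25, edgeR adjusted p = 0.0584 in WT and Log2FC 0.47, standard error 0.68, edgeR adjusted p = 0.907 in Prkd3-/-.

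Chordin (Chrd) was 21.1, 21.4 and 22.4 CPM in WT primary MEFs and 10.9, 17 and 20.2 CPM in lines, without overlap, and ran from 2.35 to 16.6 CPM in Prkd3-/-. Its relative Chrdl1 was 6.1, 6.38 and 5.83 CPM in WT primary MEFs and 2.8, 3.08 and 25.8 CPM in lines, and 4.54, 0.777 and 2.55 and 43.6, 9.63, 2.52 and 1.86 CPM in Prkd3-/-. WT line 5 and Prkd3-/- line 13 were the high libraries, and Chrdl1 passed the test in neither genotype. The activin binder follistatin (Fst) was 157, 161 and 137 CPM in WT primary MEFs and 40.4, 92.6 and 318 CPM in lines, on both sides of the primary level, and 121, 159 and 159 and 23.1, 86, 114 and 118 CPM in Prkd3-/-, where all lines were lower. Fstl1 was 2072, 2143 and 2123 CPM in WT primary MEFs and 2064, 2434 and 2321 CPM in lines (Log2FC 0.11, standard error 0.15, edgeR adjusted p = 0.743), and 1826, 2023 and 1468 and 801, 1406, 3125 and 736 CPM in Prkd3-/- (Log2FC -0.23, standard error 0.52, edgeR adjusted p = 0.949). It overlapped between states in both genotypes, and lines 13, 13a and 15 held less than any primary library. Fstl3 was 21.8 to 30.4 CPM in all primary libraries and WT lines and 88.8, 4.86, 16.8 and 9.98 CPM in Prkd3-/- lines. Of its exon bases 47.3% are shared with Prss57 on the other strand. The counts of Prss57 followed those of Fstl3 (60.1 CPM in line 13), but reads on the shared bases may be counted for both.

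The latency proteins store TGF-beta in the matrix. Ltbp2, a matrix protein of this family that does not itself hold TGF-beta covalently, was 1047, 998 and 1033 CPM in WT primary MEFs and 657, 982 and 3819.7 CPM in lines 3, 4 and 5, and 1071, 332 and 1158 and 113, 455, 322 and 719 CPM in Prkd3-/-. States overlapped in both genotypes, WT line 5 was high alone, and primary MEFs 14 were low among the Prkd3-/- primary libraries. The change was Log2FC 0.83, standard error 0.67, edgeR adjusted p = 0.553 in WT and Log2FC -1.09, standard error 0.64, edgeR adjusted p = 0.831 in Prkd3-/-, and without WT line 5 the WT value turned to -0.32. Ltbp1 was 1091, 1071 and 1157 CPM in WT primary MEFs and 1274, 752 and 921 CPM in lines (Log2FC -0.17, standard error 0.22, edgeR adjusted p = 0.717), and 1624, 659.9 and 1717 and 1228, 973, 587 and 1229.5 CPM in Prkd3-/- (Log2FC -0.42, standard error 0.39, edgeR adjusted p = 0.873). Ltbp1 overlapped between states in both genotypes, and primary MEFs 14 were again the lowest of the Prkd3-/- primary libraries. Ltbp4 was 94.9, 95 and 83.7 CPM in WT primary MEFs and 108, 226 and 89.4 CPM in lines, and 71.8, 55 and 57.7 and 166, 78.3, 84.7 and 72.8 CPM in Prkd3-/-, where all lines were higher, line 15 only slightly. Ltbp3 was 486, 475 and 479.7 CPM in WT primary MEFs and 356, 519 and 484 CPM in lines, and 492, 218 and 459 and 286, 443, 638 and 431 CPM in Prkd3-/-, overlapping in both genotypes. Bmp1, a protease that processes procollagen and chordin, was 232, 230.4 and 215 CPM in WT primary MEFs and 286, 265 and 293 CPM in lines, without overlap (Log2FC 0.32, standard error 0.10, edgeR adjusted p = 0.147), and 103 to 409 CPM in Prkd3-/- lines around 225 to 284 CPM in their primary libraries.

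The 8 target and feedback genes of the list varied from line to line, and 0 of the 8 passed the test in either genotype. Id genes encode helix-loop-helix proteins that hold back differentiation factors. Id1 was 48.6, 53.6 and 63.4 CPM in WT primary MEFs and 45.8, 23 and 39.7 CPM in lines, and 63, 25.6 and 60.9 and 73.4, 71.1, 73.4 and 23.7 CPM in Prkd3-/-. Id2, whose window is printed above, was 36.6, 38.1 and 41.1 CPM in WT primary MEFs and 19.7, 25.7 and 30 CPM in lines, and 39.5, 37.7 and 33.6 and 52, 45.7, 78.2 and 11.7 CPM in Prkd3-/-. Both were below all primary libraries in every WT line, with Log2FC -0.62, standard error 0.17, edgeR adjusted p = 0.114 for Id2, and neither was separated in Prkd3-/-, where line 15 was the lowest library for Id1 and Id2 and line 14 the highest for Id2. Id3, the Id gene with the highest FPKM in the means of all 4 groups, was 160.4, 167 and 165 CPM in WT primary MEFs and 140.3, 103 and 190.0 CPM in lines (Log2FC -0.19, standard error 0.22, edgeR adjusted p = 0.7). In Prkd3-/- Id3 was 166, 111 and 156 CPM in primary MEFs and 109, 136, 123 and 71.3 CPM in lines (Log2FC -0.40, standard error 0.26, edgeR adjusted p = 0.843), and it overlapped in both genotypes.

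The inhibitory Smad6, a BMP-induced brake, was 38.5, 40.9 and 43.2 CPM in WT primary MEFs and 53.3, 22 and 32.2 CPM in lines, and 36.8, 11.4 and 35.2 and 22.3, 39.1, 77.8 and 13.3 CPM in Prkd3-/-. Line 14 was the highest and primary MEFs 14 and line 15 the lowest of all 13 libraries. Smad7, the brake on TGF-beta receptors, lay between 29.7 and 97.9 CPM with WT line 3 at the top. Smad9 was 7.79 to 7.82 CPM in WT primary MEFs and 7.28 to 10.9 CPM in lines, and 8.31, 1.78 and 8.89 and 3.36, 17.1, 12.9 and 6.37 CPM in Prkd3-/-. Id4 (3.05 to 19.5 CPM) and the decoy receptor gene Bambi (5.24 to 33.0 CPM) had overlapping states in both genotypes. The median Log2FC of the 8 genes was -0.19 in WT and 0.15 in Prkd3-/-. In Prkd3-/- line 14, the library with the most Bmp4 of its genotype, Id2 and Smad6 were also at their highest but Smad7 (29.7 CPM) and Bambi (5.24 CPM) at their lowest, and in line 15, with the least Bmp4, Id1, Id2 and Id3 were at their lowest. WT line 3, with the least Bmp4 of all, had Id1 at 45.8 CPM and Smad6 at 53.3 CPM, the latter the highest of the WT libraries. WT line 5, with the most Bmp4 of all 13 libraries, lay below the mean of the WT primary libraries for Id1, Id2 and Smad6. For Id3, Id4, Smad7, Smad9 and Bambi it lay above that mean. A link between the Bmp4 level and these genes was not tested.

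The lines differed from each other more than the primary libraries did. In WT the SD of log2(CPM + 0.1) was larger among lines than among primary libraries for all 40 genes tested, where this held for 88.2% of all genes, and in Prkd3-/- for 33 of 40, where it held for 82.2%. In WT lines the largest SDs were those of Bmp5 (2.94), Bmp4 (2.71), Chrdl1 (1.79) and Fst (1.5), against 0.217, 0.0594, 0.0642 and 0.127 in primary MEFs. In Prkd3-/- lines they were those of Bmpr1b (2.24), Chrdl1 (2.05), Fstl3 (1.77), Bmp4 (1.72) and Grem1 (1.66).

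**Figure D4:**
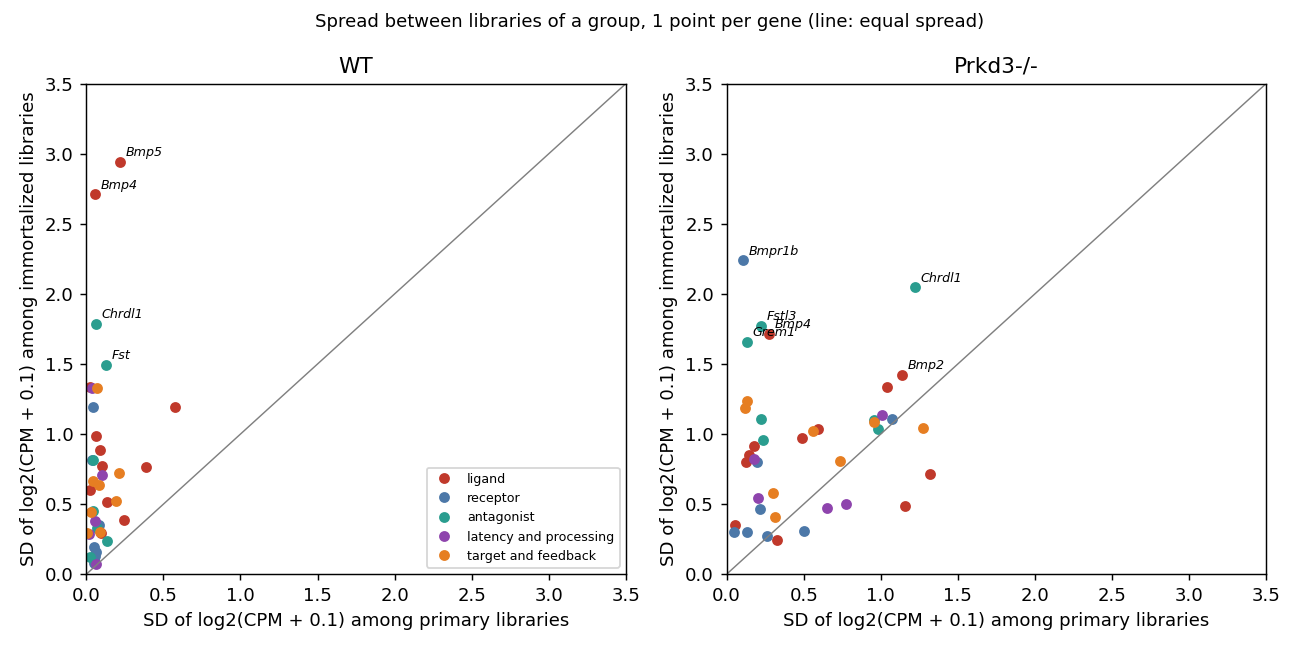
SD of log2(CPM + 0.1) among primary libraries (x axis) against that among immortalized libraries (y axis), 1 point per gene coloured by role, for WT (left, n = 3 and 3) and Prkd3-/- (right, n = 3 and 4), with a line of equal spread. All 40 WT points and 33 of 40 Prkd3-/- points lie above the line, with Bmp5 and Bmp4 highest in WT and Bmpr1b and Chrdl1 highest in Prkd3-/-.

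Counted line by line against the mean primary level of the same genotype, WT lines 3, 4 and 5 had 12, 9 and 6 of 40 genes lower by 2-fold or more and 3, 1 and 6 higher by 2-fold or more (0.1 CPM added). Together this was 37.5%, 25% and 30% of the 40, against 19.0%, 16.2% and 16.2% of all genes. In Prkd3-/- lines 13, 13a, 14 and 15 the counts were 13, 6, 13 and 15 lower and 3, 3, 6 and 0 higher, or 40.0%, 22.5%, 47.5% and 37.5%, against 29.6%, 10.7%, 22.2% and 18.3% of all genes. Lines 13 and 13a, which share a clone number, differed 2-fold or more in 17 of 40 genes (42.5%), against 30.6% of all genes. The heat map of line ratios shows the Bmp2, Bmp3, Gdf5 and Gdf6 ratios low across all WT lines and the Bmp4 ratio of either sign.

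**Figure D5:**
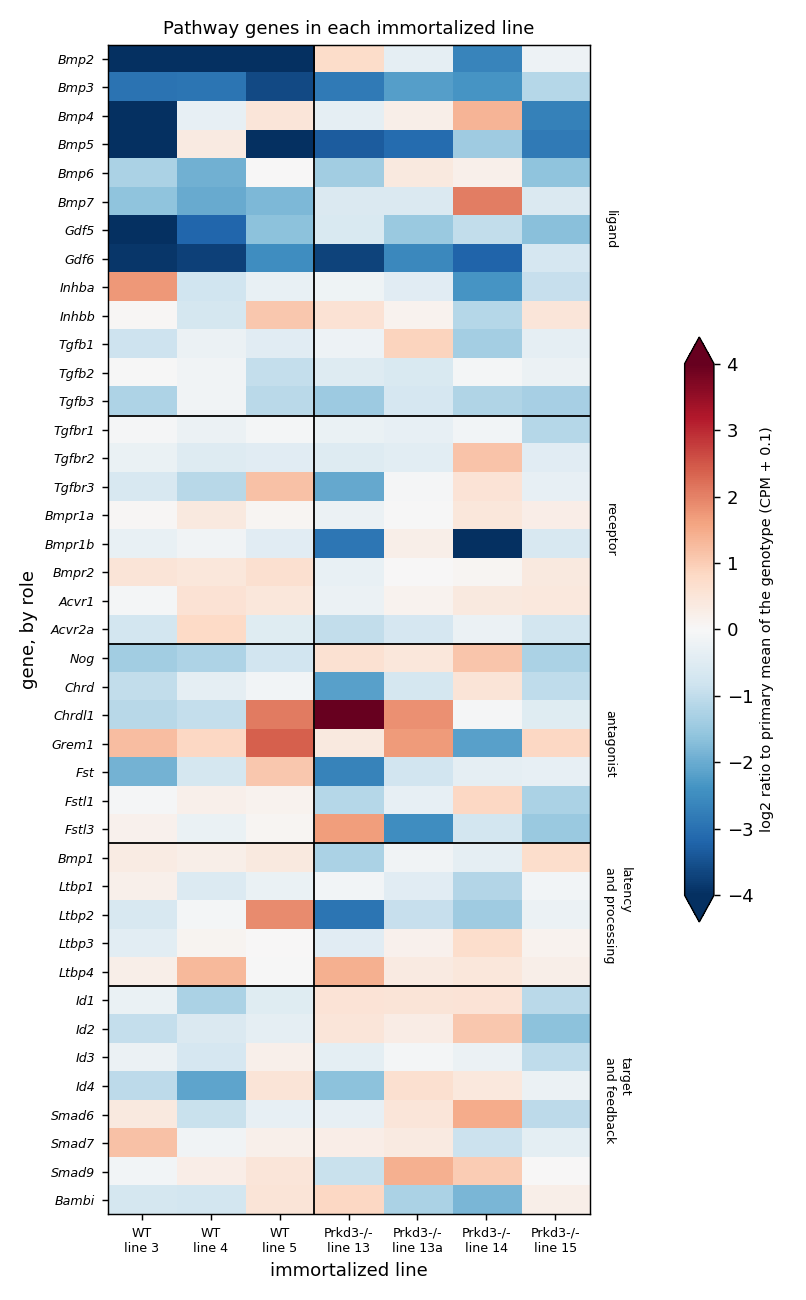
log2 ratio of the CPM in each immortalized line (x axis) to the mean of the primary libraries of its genotype, with 0.1 CPM added to both, for 41 genes ordered by role (y axis). Blue is lower and red higher, and colours end at -4 and 4. Bmp2, Bmp3, Gdf5 and Gdf6 are blue in all 3 WT lines, Bmp5 is blue in 2 WT lines and in all 4 Prkd3-/- lines, and Bmp4 is blue in WT line 3 and Prkd3-/- line 15 and red in Prkd3-/- line 14.

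Of 65 further pathway genes listed, 55 could be tested in WT, of which 2 were called lower and 0 higher (1.76% and 0.0605% of all genes), with a median Log2FC of 0.09, and 54 in Prkd3-/-, of which 0 were called, with a median of -0.08. Gdf10, a BMP3-related ligand, fell in WT from 3.68 to 3.92 CPM in primary MEFs to 1, 0 and 1 counts in lines 3, 4 and 5 (edgeR adjusted p = 0.000953), a ratio of 358 with an exact 95% Poisson interval of 99.1 to 2957 for counting error. In Prkd3-/- Gdf10 overlapped between states, at 0.462 to 1.66 CPM in primary MEFs and 0 to 2.74 CPM in lines. Nrros, which presents latent TGF-beta on myeloid cells, fell from 17.5 to 19.1 CPM to 0.762 to 1.27 CPM, a Log2FC of -4.16 with a standard error of 0.22 (edgeR adjusted p = 0.000681), and the summed macrophage markers given above were lower in the same lines. In Prkd3-/- Nrros overlapped, at 2.32 to 24.2 CPM in primary MEFs and 0.344 to 3.40 CPM in lines. The part of macrophage RNA in the Nrros value was not tested. Of 4 further receptor genes tested 0 were called in either genotype. Acvrl1 was 18.9 to 19.3 CPM in WT primary MEFs and 0.779 to 3.58 CPM in lines (Log2FC -3.24, edgeR adjusted p = 0.0304). In Prkd3-/- it was 13.7 to 18.5 and 2.18 to 8.25 CPM (Log2FC -2.10, edgeR adjusted p = 0.486). Its lines lay below all primary libraries in both genotypes, against 17.4% and 5.26% of all genes, and Acvr1b, Acvr2b and Eng overlapped. Among 13 Smad and Smad regulator genes 0 were called in either genotype, with a median Log2FC of 0.18 in WT and 0.04 in Prkd3-/-. In WT every line lay above every primary library for 4 of the 13, against 13.9% of all genes. They were Smad1, a BMP Smad (27.3 to 30.0 CPM in primary MEFs and 33.1 to 35.3 CPM in lines), and Smad4, the shared partner Smad (90.9 to 94.9 and 101 to 122 CPM). The others were the regulator genes Smurf2 (91.7 to 94.7 and 99.6 to 119 CPM) and Tgif1 (47.2 to 49.4 and 59.1 to 80.3 CPM). Tgif1 had the smallest p of the 4 (Log2FC 0.59, edgeR adjusted p = 0.0719). Every WT line lay below for 1, against 17.4% of all genes, namely Ski, a repressor of Smad activity (396 to 425 and 263 to 320 CPM, edgeR adjusted p = 0.0728). In Prkd3-/- the states of all 13 overlapped, where 9.45% of all genes had separate states in either direction. Of 9 further target genes 0 were called in either genotype, but every WT line lay below for 2, Msx1 and Hey1, against 17.4% of all genes. Msx1 was 14.6 to 32.0 CPM in WT primary MEFs and 0.161 to 1.05 CPM in lines (Log2FC -5.16, edgeR adjusted p = 0.0198). Hey1 was 1.47 to 2.07 and 0.290 to 0.806 CPM (Log2FC -1.76, edgeR adjusted p = 0.0775). The states of all 9 overlapped in Prkd3-/-.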

How the data were processed

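Poly-A RNA from 13 MEF cultures was sequenced as paired ends. What the authors deposited are 2 tables, 1 per genotype, of unnormalized counts by gene. For the WT table they aligned pairs to mm10 with STAR 2.7.10a, handled files with Samtools 1.18 and counted uniquely mapped pairs with featureCounts (Subread 2.0.6) over the genes of Ensembl release 102, and per the file headers strand was not used, so overlapping genes on opposite strands share reads. The options behind the Prkd3-/- table are not given in the sources used here, but it lists the same genes, positions and lengths. Both tables hold 37 mitochondrial genes without a count.

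Counts were used as deposited, with totals of 35273408 to 100441756. Each genotype was fitted alone with edgeR 4.0.16 in R 4.3.3 (quasi-likelihood test, TMM, filterByExpr, robust, Benjamini-Hochberg over all genes), with calls at an adjusted p below 0.01 and a change of 2-fold or more. The difference between genotypes was an interaction over 13 libraries at an adjusted p under 0.05. The standard error is the Log2FC divided by the square root of F. Printed CPM and FPKM use TMM over all libraries and the deposited exon length. The floor is 3 counts, and intervals and floors cover counting error only. Scripts were tested on simulated data.

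The 41 genes, the roles, the 65 further pathway genes and the 53 markers in 7 lists were chosen with earlier results of these data known. Library by library the text names genes called in either genotype, genes whose states do not overlap with a |Log2FC| of at least 1, and the 5 with the highest FPKM in WT primary MEFs. Others shown library by library (Bmp4, Bmp7, Bmpr1b, Bmpr2, Chrdl1, Id1, Smad6 and the like) were picked after their values were seen. Libraries sharing a number come from the same embryo, which the study states for WT and the clone numbers in the titles imply for Prkd3-/-, and their deviations from group means correlated with r of -0.31 to 0.12. DESeq2 1.42.0, limma 3.58.1 and further settings were alternatives. Lines 13 and 13a share a clone number and were also tried as their sum. Sequences come from RefSeq (GRCm38.p6).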

Additional observations from a re-analysis of the deposited data

Results flagged for a closer look

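The group of 4 Prkd3-/- lines was the only one large enough to check. There 7 of 41 genes had a library far from the other 3 by Dixon's criterion at the 95% level. For normally distributed values chance alone meets it in about 1 of 20 groups. The criterion was applied to CPM without log transformation and to the 41 genes only. The share over all genes was not computed, so the count does not show an excess for this pathway. Line 14 had the high value for 3 of them, with Bmp5 at 0.344 CPM (others 0.0191 to 0.0674), Bmp7 at 0.516 CPM (others 0) and the receptor gene Tgfbr2 at 544 CPM (others 174 to 183). Line 13 had the high value for 2, with Fstl3 at 88.8 CPM (others 4.86 to 16.8) and Ltbp4 at 166 CPM (others 72.8 to 84.7). Line 15 was high for Gdf6 at 3.90 CPM (others 0.382 to 0.959) and low for the target gene Id1 at 23.7 CPM (others 71.1 to 73.4). The Bmp5 and Bmp7 values rest on few counts.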

How the results depend on the processing

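The 1 gene called lower in WT (Bmp3) became 5 with DESeq2 and 3 at an adjusted p under 0.05 (Bmp2, Bmp3 and Gdf6). The number was 0 with all 13 libraries fitted together, limma-voom with a weight per state, or the embryo as a replicate block. With at least 10 counts in every library it was 0 of 35 tested, but Bmp3 fell short of that minimum and was not tested. Leaving out 1 WT library gave 0 to 2. With DESeq2 the 0 called higher in WT became 1 (Grem1), and the 0 that differed between genotypes became 1 (Bmp2). No alternative called any of the 41 in Prkd3-/-. Over all genes the 361 called in WT became 1361 with DESeq2, 868 at an adjusted p under 0.05, 198 with limma, 157 with the count minimum, 0 with the block or the joint fit, and 48 to 743 without 1 library, while the 0 in Prkd3-/- became 190 with DESeq2 and 1 in the joint fit, and the 0 between genotypes 37 with DESeq2 and 2 without line 14. The block changed no other call. For Bmp3 the WT Log2FC with the block was -4.04 (edgeR adjusted p = 0.0794). Over single genes, 30 fold changes were recomputed in 413 alternatives, of which 391 kept direction and side of the threshold, 8 lost (all Bmp3 in WT) and 9 gained a call, and 5 turned sign, all on leaving out 1 library. Those ranges were -0.32 to 1.23 for Ltbp2 and -0.43 to 0.00906 for Id3 in WT, and -0.75 to 0.60 for Bmp2 and -0.87 to 0.00236 for Fstl1 in Prkd3-/-. With levels scaled by DESeq2 size factors, an alternative chosen after seeing the data, the genes with every Prkd3-/- line above the primary libraries went from 1 to 0 (Ltbp4), and without primary MEFs 14 those below went from 3 to 8. The cause was not tested. In WT that scaling added Tgfbr1 to the genes below. Groups of 3 and 4 libraries limit every test here, and genes under about 1 CPM rest on few counts.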
